A study of Arabidopsis thaliana with 6 samples.

Results

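The early light-induced proteins (ELIPs) and their light-harvesting-like relatives are chloroplast proteins of Arabidopsis thaliana that share a membrane helix with the chlorophyll-binding antenna. The 8 genes described here were taken by identifier from a table of 32678 gene models, as the genes of ELIP1, ELIP2, the stress-enhanced proteins SEP1 and SEP2, the one-helix proteins OHP1 and OHP2, and LIL3.1 and LIL3.2. They were chosen by a family list drawn up when the fold changes between these seeds were already known, ELIP1's among them. The fold changes below are therefore given as a description, with no test of their own. Calls of these genes, from the fit over all tested genes, are given in the same way. All 8 genes had enough counts to be fitted, among 17239 genes that did.

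RNA sequencing gave transcript levels in 3 libraries of non-green seeds and 3 libraries of green seeds of a chlorophyll synthase mutant line. Non-green seeds carried the genotype label Atchlsyn1-1, and green seeds the label Atchlsyn1-1/CHLSYN, so the mutant allele is named for both. The enzyme adds the phytol tail that completes chlorophyll. Both kinds segregated in the same siliques and were separated by colour, and plants were kept at 22 °C under days of 16 h light, at 120 µE per m2 and s, and 8 h dark. The sources used here state neither the age of the seeds nor how many plants a library stands for nor what the mutation is. The sample titles of the non-green libraries also hold the word photosynthetic, while the design text calls these seeds non-competent. Nothing in the labels says that the libraries of a group came from separate plants, so p-values measure only how these samples differ among themselves, and that spread may be technical.

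ELIPs are made when light exceeds what the photosynthetic membrane can use, and are thought to hold free chlorophyll or protect the membrane. SEPs respond to light stress as well. OHP1 and OHP2 work together with the assembly factor HCF244 in building the reaction centre of photosystem II. LIL3 proteins hold geranylgeranyl reductase, which makes the phytol for chlorophyll, at the membrane.

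Total counts ran from 16438639 to 16745514 per library. CHLG (AT3G51820), the chlorophyll synthase gene itself, had 11, 6 and 9 counts in non-green seeds, against 46, 50 and 65 in green seeds, which on the log2 scale is a fold change of -2.69 ± 0.36 (SE, n = 3 in each group; edgeR adjusted p = 1.32e-09). Over all tested genes 4593 were called at an adjusted p under 0.05, which is 26.6%, with 14.2% higher and 12.5% lower in non-green seeds. Higher genes made up 53.2% of the calls (2444 against 2149 lower), and 70.5% (3266 against 1364) when libraries were scaled by total counts alone, which adds 0.07 to the median log2 fold change of all genes. The 6 embryo marker genes summed to 248440 to 258541 CPM (counts per 1000000 after scaling) in non-green seeds and 279526 to 290558 CPM in green seeds. Most of this came from the storage protein genes CRU1 and CRU3. In such bulk samples, fewer cells of a type and less RNA per cell cannot be told apart.

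The feature shared by all 8 proteins is printed first. In antenna proteins, acidic residues and arginines of the conserved helices pair across helices and help to hold chlorophyll. Every one of the 8 coding sequences held a stretch with such residues, an acidic residue followed 5 positions later by an arginine, then any residue, then alanine or cysteine, then methionine. The pattern was written to match all 8 after their sequences had been read, and 0.689% of 27444 RefSeq protein-coding genes hold it. Each line gives 45 coding bases, 5′ to 3′, from the RefSeq genome TAIR10.1, starting at the acidic residue, with the codons of the acidic residue and the arginine in capitals. Where the stretch crosses an intron the coordinates span it and the letters are spliced.
ELIP1 first stretch (chr3:8084880-8084924, minus strand): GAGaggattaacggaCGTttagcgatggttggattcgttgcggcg
ELIP1 second stretch (chr3:8084667-8084711, minus strand): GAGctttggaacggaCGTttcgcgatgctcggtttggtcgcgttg
ELIP2 first stretch (chr4:8418833-8418877, plus strand): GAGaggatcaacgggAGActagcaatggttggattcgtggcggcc
ELIP2 second stretch (chr4:8419046-8419090, plus strand): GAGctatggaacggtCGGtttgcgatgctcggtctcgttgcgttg
SEP1 (chr4:16372856-16372900, minus strand): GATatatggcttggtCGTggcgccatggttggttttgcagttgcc
SEP2 (chr2:9357440-9357562, minus strand, spliced): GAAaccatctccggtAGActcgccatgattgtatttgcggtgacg
OHP1 (chr5:419420-419464, plus strand): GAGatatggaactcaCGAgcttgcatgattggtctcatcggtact
OHP2 (chr1:12358238-12358515, minus strand, spliced): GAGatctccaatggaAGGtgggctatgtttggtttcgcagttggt
LIL3.1 (chr4:9804376-9804489, plus strand, spliced): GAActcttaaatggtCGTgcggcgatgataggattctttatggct
LIL3.2 (chr5:19134440-19134570, minus strand, spliced): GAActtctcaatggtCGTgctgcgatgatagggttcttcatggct

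ELIP1 and ELIP2 each had 2 of the 10 stretches, in the last of their 3 exons, and the other genes had 1 each. Over their whole length ELIP1 (195 residues) and ELIP2 (193 residues) were 77.1% identical, and LIL3.1 (262 residues) and LIL3.2 (258 residues) were 75.7% identical. The other pairs among 28 were far apart, at 13.7% to 23.3%. The stretches of SEP2, OHP2, LIL3.1 and LIL3.2 were interrupted by an intron, while those of ELIP1, ELIP2, SEP1 and OHP1 lay within 1 exon.

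**Figure D1:**
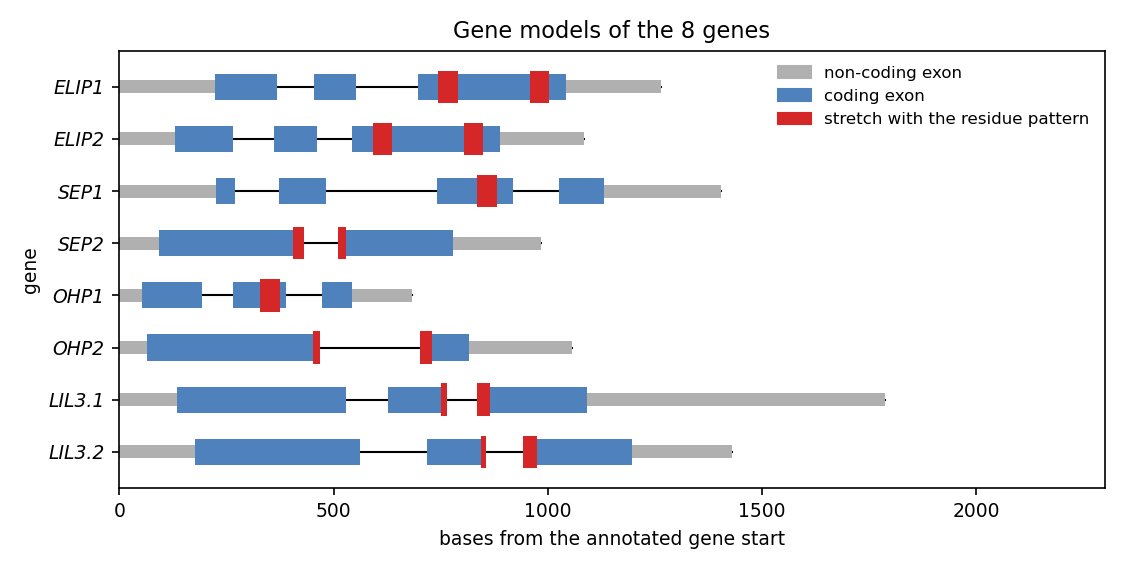
Gene models of the 8 genes in TAIR10.1, one row per gene, against the distance in bases from the annotated gene start; boxes are exons, lines introns, and red marks the coding bases of the stretches with the residue pattern. ELIP1 and ELIP2 carry 2 stretches each, and the stretches of SEP2, OHP2, LIL3.1 and LIL3.2 are interrupted by an intron.

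The ELIP genes held the large differences of the family. ELIP1 (AT3G22840, chr3:8084405-8085669, minus strand) had 132.5, 143.7 and 148.4 CPM in non-green seeds, against 6.98, 8.46 and 9.35 CPM in green seeds. All 3 non-green libraries lay far above all 3 green ones, and the groups did not overlap. The mean was 141.6 ± 8.16 CPM in non-green seeds and 8.26 ± 1.2 CPM in green seeds (SD, n = 3 each), which is 17.1-fold, or 4.1 ± 0.07 (SE) on the log2 scale. Among genes higher in non-green seeds, 5 of the 17239 tested had a larger fitted fold change than ELIP1, and each of them had 14 to 66 counts in a non-green library and 0 to 3 in a green one, so that their fitted values depend on the prior count. These 5, named after their values were seen, were AT3G50610, KOR2, HSP23.6-MITO, M17 and SAG12. ELIP1 had 2300, 2463 and 2492 counts in the non-green libraries, against 113, 135 and 153 in the green ones.

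ELIP2 (AT4G14690, chr4:8418242-8419325, plus strand), the close copy of ELIP1, differed in the same direction by less. It had 35.0, 35.3 and 36.2 CPM in non-green seeds, against 9.88, 9.96 and 10.15 CPM in green seeds. The groups did not overlap. Its counts, 605 to 608 in non-green libraries and 159 to 166 in green ones, varied by less than counting noise alone would give. The SDs below are therefore likely too small. Its mean was 35.5 ± 0.582 CPM in non-green seeds and 9.997 ± 0.137 CPM in green seeds (SD, n = 3 each), or 3.55-fold and 1.83 ± 0.09 (SE) on the log2 scale. No 36-base word of the ELIP1 or ELIP2 exons occurs elsewhere in the genome, so a 36-base read without mismatches fits 1 of the copies only. Neither gene overlaps another annotated gene.

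The ratio of the copies also differed between the seeds. Per gene length, as RPKM (reads per kilobase of gene model and 1000000 reads), ELIP1 stood at 3.63 ± 0.161 times the level of ELIP2 in non-green seeds and at 0.753 ± 0.0999 times in green seeds (SD, n = 3 each). ELIP1 was thus above ELIP2 in the non-green libraries and below it in the green ones. Among all tested genes ELIP1 lay at percentile 98.3 of mean RPKM in non-green seeds and at 60.9 in green seeds. ELIP2 lay at percentile 91.8 in non-green seeds and at 69.0 in green seeds.

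Because both ELIP genes were higher in non-green seeds, the 250 bases before their annotated starts are shown. Letters are 5′ to 3′ on the strand of the gene in TAIR10.1, in lower case, with CACGTG (the G-box, bound by light-regulated bZIP factors such as HY5) and GATAAG (the I-box of light-regulated promoters, here on the opposite strand and so read as CTTATC) in capitals.
ELIP1 promoter (chr3:8085670-8085919, minus strand): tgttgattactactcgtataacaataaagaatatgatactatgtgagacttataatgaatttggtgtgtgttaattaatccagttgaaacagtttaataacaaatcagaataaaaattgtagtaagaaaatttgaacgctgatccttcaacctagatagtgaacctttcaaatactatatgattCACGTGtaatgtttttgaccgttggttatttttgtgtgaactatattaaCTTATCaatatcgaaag
ELIP2 promoter (chr4:8417992-8418241, plus strand): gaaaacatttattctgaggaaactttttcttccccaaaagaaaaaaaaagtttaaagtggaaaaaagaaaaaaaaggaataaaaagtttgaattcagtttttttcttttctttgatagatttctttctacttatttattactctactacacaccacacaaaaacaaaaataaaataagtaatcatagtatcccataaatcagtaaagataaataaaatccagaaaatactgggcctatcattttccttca

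In the ELIP1 window CACGTG began 66 bases and GATAAG 17 bases before the start. The ELIP2 window held neither, so the copies share no searched motif in these windows. The search covered both strands for CACGTG, for its core ACGT, which lies inside CACGTG, for GATAAG and for GAANNTTC, a heat shock element core. CACGTG occurred in the windows of ELIP1 and OHP1, and in 6.49% of 27444 promoters of the same length. GATAAG occurred in ELIP1 and in 12.3% of promoters, and GAANNTTC in OHP1 and in 9.55%. ACGT occurred in ELIP1, SEP1, SEP2, OHP1 and LIL3.2, and in 44.1% of promoters. The windows of SEP1 and SEP2 each reach into 1 other annotated gene, so their hits may lie in that gene. OHP2 and LIL3.1, like ELIP2, held none of the 4.

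The SEP genes, whose proteins are named for their response to stress, differed between the seeds by less than the SD of either group. SEP1 (AT4G34190, chr4:16372333-16373736, minus strand) is the stress-enhanced protein and not the floral SEPALLATA gene of the same symbol. It had 4.78, 6.19 and 5.42 CPM in non-green seeds, against 6.18, 5.51 and 4.16 CPM in green seeds. The groups overlapped. Its log2 fold change was 0.05 ± 0.18 (SE), with a 95% interval (1.96 SE to each side) from -0.30 to 0.40. SEP2 (AT2G21970, chr2:9356983-9357967, minus strand) had 19.7, 26.0 and 24.7 CPM in non-green seeds, against 25.6, 26.3 and 22.0 CPM in green seeds. These groups overlapped as well. The log2 fold change of SEP2 was -0.07 ± 0.09 (SE), with a 95% interval from -0.25 to 0.10, so the interval holds no change of the size seen in ELIP2.

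The genes of the OHP pair had small differences. OHP1 (AT5G02120, chr5:419091-419773, plus strand) was the lowest of the 8, with 46, 38 and 40 counts in non-green seeds, against 22, 46 and 41 in green seeds. In CPM this is 2.65, 2.22 and 2.38 in non-green seeds, against 1.36, 2.88 and 2.51 in green seeds. The groups overlapped, and green replicate 1 was the lowest of the 6 libraries. The log2 fold change of OHP1 was 0.10 ± 0.28 (SE), with a 95% interval from -0.45 to 0.66, the widest of the family. OHP2 (AT1G34000, chr1:12357910-12358966, minus strand) had 11.8, 10.7 and 11.6 CPM in non-green seeds, against 10.6, 9.15 and 9.54 CPM in green seeds. Its groups did not overlap, although the lowest non-green library lay only just above the highest green one. OHP2 had a log2 fold change of 0.22 ± 0.12 (SE), with a 95% interval from -0.03 to 0.46, and was not among the called genes.

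Of the LIL3 copies, LIL3.2 had the larger difference. LIL3.2 (AT5G47110, chr5:19133986-19135414, minus strand) had 18.8, 18.03 and 17.8 CPM in non-green seeds, against 12.7, 13.5 and 11.0 CPM in green seeds. The groups did not overlap. Its mean was 18.2 ± 0.545 CPM in non-green seeds and 12.4 ± 1.26 CPM in green seeds (SD, n = 3 each), or 1.47-fold and 0.56 ± 0.11 (SE) on the log2 scale. LIL3.1 (AT4G17600, chr4:9803624-9805410, plus strand) had 5.70, 5.13 and 3.75 CPM in non-green seeds, against 5.62, 4.13 and 3.97 CPM in green seeds. Here the groups overlapped, and the log2 fold change was 0.09 ± 0.19 (SE), with a 95% interval from -0.29 to 0.47. That interval overlaps the one of LIL3.2, which ran from 0.35 to 0.76. In each of LIL3.1 and LIL3.2, 8 of the 36-base exon words occur more than once in the genome. These are 0.528% of the words of LIL3.1 and 0.741% of those of LIL3.2. Few 36-base reads without mismatches would thus fit more than 1 place.

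**Figure D2:**
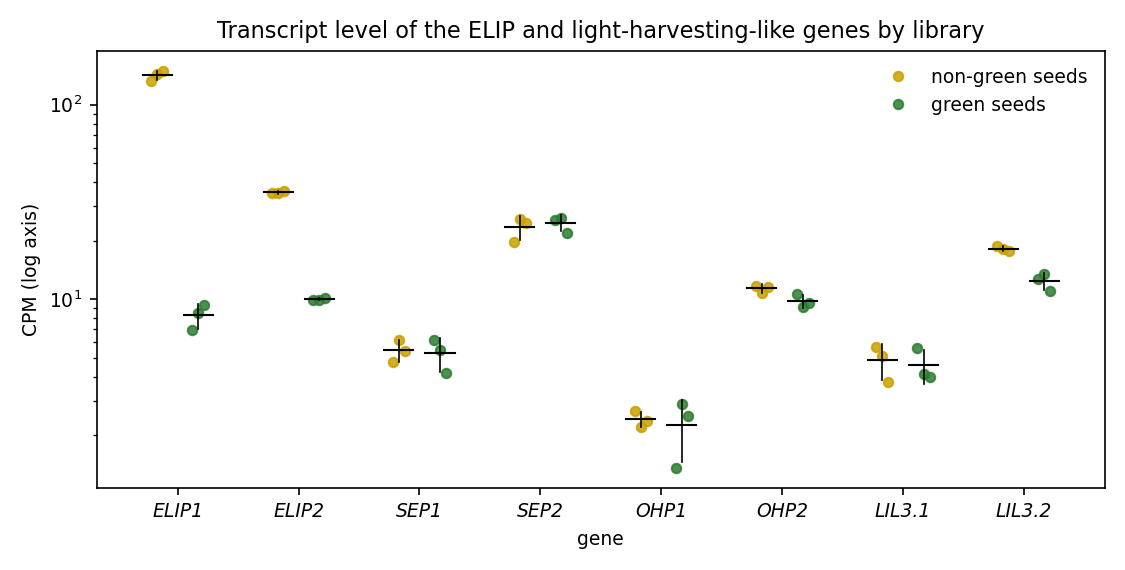
CPM of the 8 genes in each library on a log axis, non-green seeds (yellow points) left of green seeds (green points); horizontal lines are means and vertical lines the SD over 3 libraries. ELIP1, ELIP2, OHP2 and LIL3.2 have groups that do not overlap, and the gap is widest for ELIP1, at 141.6 CPM in non-green seeds against 8.26 CPM in green seeds.

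Of the 8 genes 3 were called (ELIP1, ELIP2 and LIL3.2), all higher in non-green seeds, and 0 were called lower, beside 26.6% of all tested genes called in either direction. Groups did not overlap for 4 of the 8, beside 37.3% of all tested genes. The median log2 fold change of the 8 was 0.16. As the family was chosen with this contrast known, nothing is read from these counts. The authors' deposited table gives log2 fold changes of 3.96 for ELIP1, 1.75 for ELIP2, 0.52 for LIL3.2 and 0.20 for OHP2. In the authors' deposited table the other 4 genes lie between -0.07 (SEP2) and 0.07 (OHP1 and LIL3.1), with SEP1 at 0.04.

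In the RefSeq models 5 of the genes overlap a neighbour, and the sources used here do not say whether counting used strand. Counts of these genes could therefore hold reads of the neighbour. The RefSeq spliced length equals the deposited model length only for OHP1 and OHP2, so overlaps of the counted models may differ. For LIL3.1 the RefSeq length is 1620 bases and the deposited one 1001, so its overlap below may not apply to the counts. SEP2 overlaps AT2G21960 on the opposite strand over 109 bases, OHP1 overlaps NDP1 over 116, OHP2 overlaps MES14 and a long non-coding RNA over 456 in all, and LIL3.1 overlaps AT4G17610 over 457. SEP1 shares 6 bases with EDA9 on the same strand. Of these neighbours EDA9 was called, at 0.22 ± 0.07 (SE, edgeR adjusted p = 0.022). AT2G21960, NDP1, MES14 and AT4G17610 were not, and the long non-coding RNA was not analysed here. ELIP1, ELIP2 and LIL3.2, the called genes, overlap no annotated gene.

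The order of the 8 genes by RPKM differed between the seeds. In non-green seeds ELIP1 led at 164.1 ± 7.66, followed by ELIP2 at 45.2 ± 0.130, SEP2 at 28.1 ± 3.81, LIL3.2 at 17.2 ± 0.716, OHP2 at 14.1 ± 0.685 and SEP1 at 7.24 ± 0.925 (RPKM, SD, n = 3). LIL3.1 at 4.99 ± 1.09 and OHP1 at 4.71 ± 0.456 came last, and these were the only neighbours in the order whose ranges overlapped. In green seeds SEP2 led at 28.0 ± 2.50 and stood clear of the rest. ELIP2 at 12.1 ± 0.238, OHP2 at 11.6 ± 1.05, LIL3.2 at 11.1 ± 1.05, ELIP1 at 9.10 ± 1.29, SEP1 at 6.65 ± 1.31, LIL3.1 at 4.46 ± 0.930 and OHP1 at 4.15 ± 1.42 followed, and the ranges of all neighbours among these 7 overlapped.

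Summed over the 8 genes, the level was 285.7 ± 9.67 RPKM in non-green seeds and 87.1 ± 3.71 RPKM in green seeds (SD, n = 3 each), which is 3.28 times. ELIP1 alone made up 57.4% ± 0.927 of the sum in non-green seeds and 10.5% ± 1.91 in green seeds. SEP2 made up 9.81% ± 1.02 of it in non-green seeds and 32.1% ± 1.54 in green seeds. The share of ELIP2 was 15.8% ± 0.518 in non-green seeds and 13.9% ± 0.853 in green seeds. Without the ELIP genes the sum of the other 6 was 76.4 ± 2.87 RPKM in non-green seeds and 65.9 ± 5.06 RPKM in green seeds. Most of the difference in the sum thus lay in ELIP1. The RPKM are scaled by total counts and not by TMM, which raises non-green values over green ones. In CPM scaled by TMM, the 8 genes summed to 242.9 ± 10.4 in non-green seeds and 77.2 ± 3.92 in green seeds (SD, n = 3 each), or 3.15 times.

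**Figure D3:**
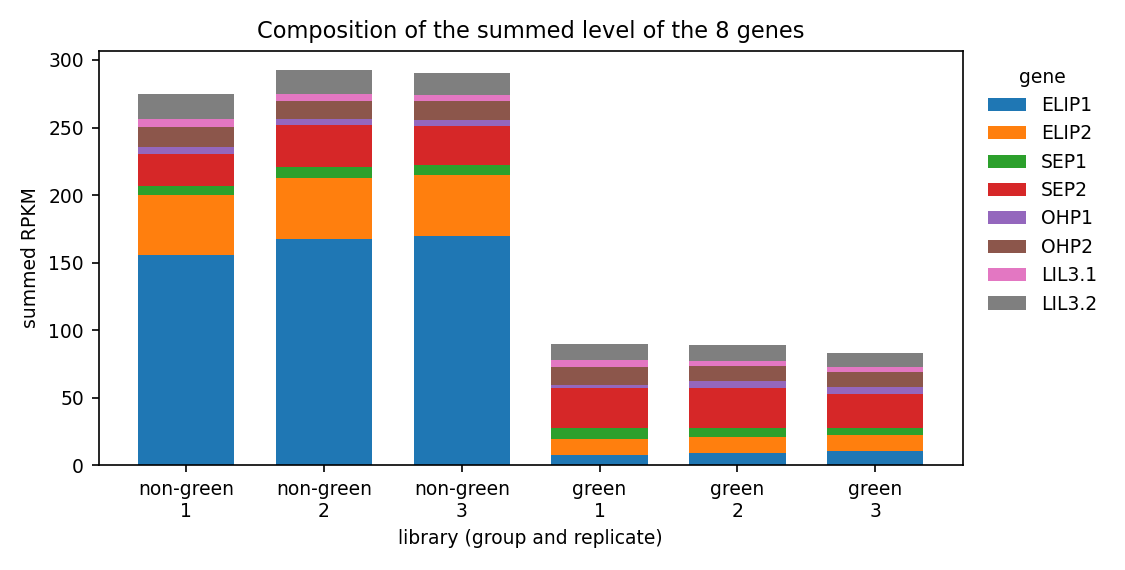
Summed RPKM of the 8 genes in each library, stacked by gene, with the 3 non-green libraries on the left and the 3 green libraries on the right. ELIP1 fills 57.4% of the mean non-green column and 10.5% of the mean green one, while SEP2, at 28.1 and 28.0 RPKM, fills 9.81% and 32.1%.

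Within pairs, LIL3.2 stood at 3.55 ± 0.717 times LIL3.1 in non-green seeds and at 2.54 ± 0.457 times in green seeds. SEP2 stood at 3.88 ± 0.212 times SEP1 in non-green seeds and at 4.29 ± 0.518 times in green seeds. OHP2 stood at 3.01 ± 0.157 times OHP1 in non-green seeds and at 3.15 ± 1.61 times in green seeds (RPKM ratios, SD, n = 3 each). Of the 4 pairs, the ELIP pair had a ratio that differed between the seeds by more than the SDs of both groups added together, and the other 3 pairs did not.

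The genes nearest to the ELIP genes were taken by the Euclidean distance of log2 CPM (prior count 2) over the 6 libraries, each gene centred on its own mean. For ELIP1 these were KOR2 (distance 0.504), M17 (0.623), a late embryogenesis abundant gene, and DGR1 (0.968), which encodes a protein of unknown function. KOR2 had 28 to 35 counts in non-green libraries and 0 to 1 in green ones, and M17 had 45 to 66 in non-green libraries and 1 to 3 in green ones. The distances of KOR2 and M17 therefore depend on the prior count, and no likeness to ELIP1 is read from them. DGR1 averaged 8.78 ± 1.16 CPM in non-green seeds and 0.681 ± 0.113 CPM in green seeds. For ELIP2 the genes were NUDT4 (distance 0.101), a nudix hydrolase gene, SZF1 (0.148), a salt-inducible zinc finger gene, and AT2G30020 (0.149), a protein phosphatase 2C gene. NUDT4 averaged 35.0 ± 1.34 CPM in non-green seeds and 9.46 ± 0.280 CPM in green seeds. These CPM lay next to those of ELIP2, but CPM is not scaled by gene length, so no equal transcript level is read from them. These distances are a description over 6 libraries in 2 groups.

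Genes with related roles are given from lists that share members with lists of earlier work on these data. The list counts below stand beside 14.2% higher and 12.5% lower among all tested genes. Among other proteins with an antenna-type helix, PSBS, the sensor of energy quenching, had a log2 fold change of 0.08 ± 0.05, FC2, a ferrochelatase gene, -0.05 ± 0.16 and PSB33 -0.04 ± 0.16 (SE, n = 3 in each group). None of the 3 was called (edgeR adjusted p = 0.205, 0.863 and 0.884), and PSBS was called under total-count scaling (0.16, adjusted p = 0.00899). Of 19 antenna genes tested, out of 21 listed, 2 were higher and 13 lower in non-green seeds, with a median of -0.24. LHCA1 fell by 0.61 on the log2 scale (edgeR adjusted p = 2.32e-16), LHCB1.3 by 0.37 (adjusted p = 1.83e-13), with reads that near-identical LHCB1 copies may share, and LHCB4.3 rose by 0.64 (adjusted p = 1.49e-15). The median of the 8 ELIP-family genes, 0.16, lay between the values of OHP1 and OHP2, neither of them called. No contrast with the antenna list is read from it, and none was tested.

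A list that joins partners of the OHP and LIL3 proteins, enzymes of chlorophyll synthesis, photosystem II assembly factors and antenna targeting factors had 2 genes higher and 7 lower of 13 tested, with a median of -0.16, and 5 lower under total-count scaling. HCF244, the partner of the OHP proteins, rose by 0.54 ± 0.16 (SE, edgeR adjusted p = 0.00547). PORB, a protochlorophyllide reductase gene, fell by 0.95 (adjusted p = 3.06e-09), and LPA1, a photosystem II assembly gene, by 0.40 (adjusted p = 0.0049). In the photoprotection list 6 of 15 genes tested, out of 16 listed, were higher and 1 was lower, with a median of 0.20. The tocopherol cyclase gene VTE1 rose by 0.21 (edgeR adjusted p = 8.71e-06), the cyclic electron flow gene PGRL1A by 0.34 (adjusted p = 0.000215), and the carotene hydroxylase gene BCH1 fell by 0.26 (adjusted p = 0.000842).

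ELIP genes are known targets of light and UV-B signalling through HY5. Of 18 light signalling genes tested 3 were higher and 1 lower, beside 14.2% higher and 12.5% lower of all tested genes, with a median of 0.04. HY5 itself, named outside the rule for genes, had 0.19 ± 0.15 (edgeR adjusted p = 0.388) and was not called. BBX25 rose by 1.75 ± 0.36 (edgeR adjusted p = 5.97e-05) and HYH, the homologue of HY5, by 0.85 ± 0.24 (adjusted p = 0.00408), a call lost without non-green replicate 3 (0.70, adjusted p = 0.0509). UVR8, the UV-B receptor gene, fell by 0.18 (adjusted p = 0.00277), which total-count scaling ended (-0.10, adjusted p = 0.125). Of 10 UV-B and high-light response genes tested, out of 12 listed, 8 were higher and 0 lower, with a median of 1.17. CHS, the first enzyme of flavonoid synthesis, rose by 1.27 ± 0.04 (edgeR adjusted p = 5.93e-42), the flavonol synthase gene FLS1 by 1.72 ± 0.06 (adjusted p = 1.42e-41) and the zinc finger gene ZAT10 by 1.00 ± 0.05 (adjusted p = 8.37e-33). The 2 listed genes left untested were F3H, at 0 in all 6 libraries, and APX2, with 1 count in green replicate 2 and 0 elsewhere.

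In the list of singlet oxygen and plastid signalling 4 of 10 genes tested, out of 13 listed, were higher and 1 lower, with a median of 0.25. The AAA-ATPase gene AT3G28580 of this list is at 0 in all 6 libraries. WRKY33 rose by 2.23 ± 0.14, ERF6 by 2.26 ± 0.21 and WRKY40 by 1.94 ± 0.25 (edgeR adjusted p = 1.25e-23, 5.31e-16 and 3.48e-10). GUN1, a plastid signalling gene, fell by 0.23 (adjusted p = 0.00242), which total-count scaling ended (adjusted p = 0.0644). Of 9 late maturation and drying genes 7 were higher and 0 lower, with a median of 0.41. M10 rose by 1.89 ± 0.10, EM6 by 0.84 ± 0.05 and LEA4-5 by 0.41 ± 0.04 (edgeR adjusted p = 5.10e-30, 1.32e-26 and 9.11e-14).

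**Figure D4:**
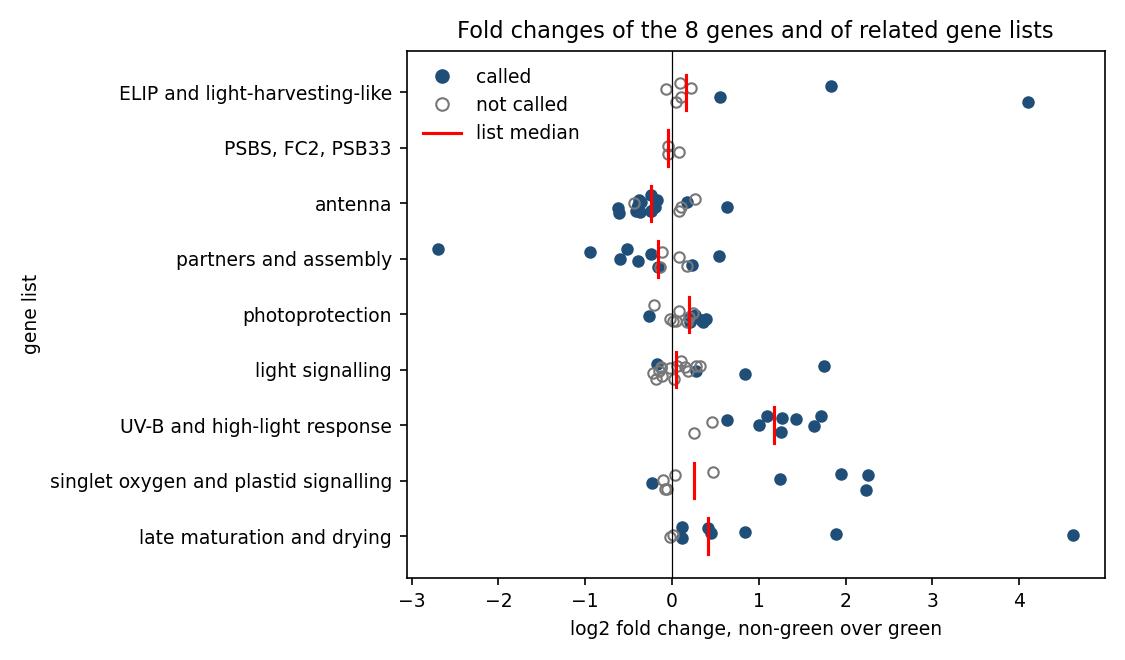
Log2 fold changes (non-green over green) of the 8 genes, top row, and of the tested genes of 8 related lists, one point per gene; filled points were called, open points were not, and red lines are list medians. The 8 genes have a median of 0.16 with ELIP1 at 4.1, and the far right point of the last row is M17, with 45 to 66 counts in non-green libraries and 1 to 3 in green ones.

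Markers of the parts of the seed and fruit moved in the same libraries, and their part in the ELIP values was not tested. Of 9 seed coat markers tested, out of 10 listed, 6 fell and 0 rose. The summed level of the list was 734.3 to 744.8 CPM in non-green seeds and 1025 to 1074 CPM in green seeds. GL2 fell by 0.89, STK by 0.58 and TT10 by 0.44 (edgeR adjusted p = 5.46e-26, 8.75e-19 and 6.37e-19). Of 6 embryo markers 2 were higher and 2 lower, with FUS3 higher by 0.29, CRU1 at -0.11 and CRU3 at -0.23 (edgeR adjusted p = 2.36e-07, 1.13e-05 and 6.75e-17). Of 4 endosperm markers tested 2 were lower, MEA at -1.26 and ALE1 at -1.92 (edgeR adjusted p = 4.49e-06 and 0.00143), while EPR1, which takes nearly all of the summed level, was at 0.06 (adjusted p = 0.14) and called higher under total-count scaling or without green replicate 2 or non-green replicate 2 (adjusted p = 7.77e-07, 0.000632 and 0.0255). The summed endosperm level was 13382 to 14873 CPM in non-green seeds and 12615 to 14578 CPM in green seeds. Of 6 silique wall markers tested 2 were higher and 0 lower, with summed levels of 89.8 to 105.8 CPM in non-green seeds and 86.7 to 93.0 CPM in green seeds, and FUL is listed at 0. FIL and YAB3 were higher by 0.22 each (edgeR adjusted p = 0.0141 and 0.0341). The call of FIL was lost when non-green replicate 1 or 3 was left out (adjusted p = 0.0622 and 0.226), and YAB3 with DESeq2 (0.074) or without green replicate 1, non-green replicate 2 or non-green replicate 3 (0.286, 0.0834 and 0.118). SHP1, at -0.30 (adjusted p = 0.0583), was called with a replicate block (0.0428) and in the fits that left out green replicate 1 (0.03) or replicate 3 of the non-green seeds (0.00303).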

How the data were processed

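RNA of 3 non-green and 3 green seed samples was sequenced from TruSeq libraries, per the labels' protocols. Read counts for each gene model were deposited by the authors, made with Bowtie 0.12.2 and the build TAIR10, per the submitters' processing notes; the counter, gene models, use of strand and treatment of multiply matching reads are not stated there. The authors also deposited RPKM values, used here for levels per length: 100% of the 29216 values precise enough gave a whole gene length within 0.05 bases. The authors' deposited comparison holds a mean signal, log2 fold changes with errors, a test score and p-values, under column names that DESeq2 uses, with no settings stated; of these the log2 fold changes are quoted.

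Counts were analysed with edgeR 4.0.16 (limma 3.58.1, R 4.3.3): filterByExpr by group, TMM factors (0.959 to 1.04), group as the only term, the quasi-likelihood test, two-sided, and Benjamini-Hochberg adjustment over all 17239 tested genes, with a gene called at an adjusted p under 0.05. The tested genes held at least 99.9% of each library. The common coefficient that edgeR terms biological variation was 5.68%, and this spread between libraries may be technical. CPM were scaled by TMM, and SE is the log2 fold change over the root of the F statistic. Low counts limit precision, most of all for OHP1. The scripts were tested on simulated counts. Alternatives were DESeq2 1.42.0, total counts alone, no filter, a replicate block and leaving out each library.

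The 8 members, the gene lists and the tests were chosen with earlier results of these data known. Named genes are the 8, CHLG, up to 3 genes per list with the smallest adjusted p plus the first called in the minority direction, and the 3 genes nearest in distance to each ELIP gene; overlapping neighbours, the 5 genes with larger fold changes than ELIP1 the genes listed at 0 and HY5 were named outside this rule. Gene models, coding sequences, promoters and motif searches came from RefSeq TAIR10.1 with Biopython 1.88, with global BLOSUM62 alignments of translated sequences; the spliced length equals the deposited length for 2 of the 8 genes.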

Additional observations from a re-analysis of the deposited data

How the results depend on the processing

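The same 3 genes, ELIP1, ELIP2 and LIL3.2, were called under DESeq2, total counts alone, no filter on low counts, the replicate block and each left-out library. As the family was chosen with this contrast known, nothing is read from the persistence of these calls. Called genes numbered 4069 with DESeq2, 4630 with total counts alone, 4532 with no filter and 4643 with the replicate block, and 3968 to 4150 without single libraries, against 4593. The log2 fold change of ELIP1 ranged from 3.99 to 4.2, of LIL3.2 from 0.48 to 0.63 and of OHP2 from 0.17 to 0.29. ELIP2 ranged from 1.81 to 1.90, with 1.90 under total counts alone, since that scaling shifts all genes by 0.07. That move exceeded the very small spread of ELIP2 between replicates, but not its SE of 0.09. SEP1, SEP2, OHP1 and LIL3.1, none of them called, changed sign in 1 or 2 alternatives each and stayed between -0.16 and 0.32. In the context lists 69 genes were called with TMM and 69 with total counts alone, of which 64 were shared. Same-numbered libraries did not deviate together over all tested genes (correlations 0.013, 0.004 and -0.001). Counting noise of low-count genes weighs on these values, so they cannot say whether same-numbered samples came from the same plants. The replicate block ended no call of the 8. OHP1, with 22 to 46 counts per library, is limited by depth.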
